A study of Homo sapiens with 12 samples.

Results

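The 8 genes described here are the loci scored, or usable, in mutation assays of TK6 cells, with their related nucleoside and nucleotide kinases: TK1, TK2, HPRT1, PIGA, APRT, DCK, DTYMK and ADK. They were chosen by name for their role, and all 8 are among the 50006 rows of the deposited count table and the 12030 genes that passed the filter on low counts. TK6, here labelled TK6 (IVGT) and obtained from the JCRB Cell Bank, is an established human B lymphoblastoid line grown in suspension. Cells were incubated for 24 h with 3-methylcholanthrene, a polycyclic aromatic hydrocarbon carcinogen, at 0 (control), 0.0004 (low), 0.04 (medium) or 4 µg/mL (high), and 3 libraries of poly(A) RNA were sequenced for each. The labels do not say whether those 3 came from different cultures, and the p-values below therefore describe differences among libraries that may be technical repeats. Neither the solvent nor any metabolic activation is named in the labels.

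A mutation assay of this kind counts cells that have lost a gene whose loss is tolerated and can be selected. Thymidine kinase 1 (TK1) phosphorylates thymidine, cells without it survive trifluorothymidine, and TK6 carries a single functional TK1 allele. HPRT1 and APRT are phosphoribosyltransferases that recycle purine bases, and their loss gives resistance to 6-thioguanine and to 2,6-diaminopurine. PIGA is a subunit of the enzyme that starts the glycosylphosphatidylinositol (GPI) anchor, and its loss removes anchored proteins such as CD55 and CD59 from the cell surface. The RNA levels below measure neither mutation nor enzyme activity.

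On GRCh38.p14 the scored loci are TK1 (chr17:78174079-78187204, minus strand), HPRT1 (chrX:134460165-134500668, plus strand), PIGA (chrX:15319451-15335554, minus strand) and APRT (chr16:88809339-88811928, minus strand). The kinases are TK2 (chr16:66508003-66550291, minus strand), DCK (chr4:70993649-71030914, plus strand), DTYMK (chr2:241675747-241686815, minus strand) and ADK (chr10:74151221-74709290, plus strand).

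Library totals ran from 9163368 to 19841387 counts, of which the 8 genes together took 0.0416% to 0.0501%. The sparsest member was TK2, with 56 to 145 counts. Summed over the list, B cell markers stood at 1474.01 to 2832.9 TPM, with 0 of 8 at or below 3 counts in every library, although BLK had only 0 to 4 counts. By the same bar 4 of 8 T and NK cell, 5 of 7 myeloid and 4 of 7 stromal and epithelial markers were at or below 3 counts in every library. The summed levels were 9.19 to 19.3 TPM for T and NK cells, 28.3 to 49.2 TPM for myeloid cells and 99.9 to 159.5 TPM for stromal and epithelial cells. Most of these sums came from NKG7 (13.4 TPM on average), S100A9 (39.6 TPM) and the keratin KRT8 (132.9 TPM), while CD3G, MPO, EPCAM and DCN were at 0 counts. Others of these lists had counts, among them COL1A1 (22 to 105), CSF1R (6 to 50) and CD2 (1 to 15). Mitochondrial 16S ribosomal RNA took 1.43% to 7.99% of counts, the most in low replicate 3 (7.99%) and high replicate 3 (7.96%).

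The starts of the 4 scored loci are shown as description, and a relation to their levels, given next, was not tested. Each sequence holds the 250 bases before the RefSeq start (GRCh38.p14), 5′ to 3′ on the strand of the gene, with capitals marking the GC, CCAAT and TATA boxes found on either strand:
TK1 promoter, chr17:78187205-78187454, minus strand: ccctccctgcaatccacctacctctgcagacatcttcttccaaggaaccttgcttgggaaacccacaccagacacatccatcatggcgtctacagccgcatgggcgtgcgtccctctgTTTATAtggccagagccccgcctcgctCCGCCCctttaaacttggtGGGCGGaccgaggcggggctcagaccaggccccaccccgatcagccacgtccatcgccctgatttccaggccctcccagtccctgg
HPRT1 promoter, chrX:134459915-134460164, plus strand: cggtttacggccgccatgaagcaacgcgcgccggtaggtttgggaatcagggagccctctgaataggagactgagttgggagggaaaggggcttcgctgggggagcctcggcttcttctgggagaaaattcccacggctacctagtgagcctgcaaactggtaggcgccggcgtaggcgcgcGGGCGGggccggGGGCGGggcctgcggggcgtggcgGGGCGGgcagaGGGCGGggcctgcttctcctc
PIGA promoter, chrX:15335555-15335804, minus strand: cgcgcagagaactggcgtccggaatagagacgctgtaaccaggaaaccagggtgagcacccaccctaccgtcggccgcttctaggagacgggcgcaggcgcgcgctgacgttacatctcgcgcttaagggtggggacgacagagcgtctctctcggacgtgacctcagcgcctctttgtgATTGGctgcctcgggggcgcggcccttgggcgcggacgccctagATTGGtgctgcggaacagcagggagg
APRT promoter, chr16:88811929-88812178, minus strand: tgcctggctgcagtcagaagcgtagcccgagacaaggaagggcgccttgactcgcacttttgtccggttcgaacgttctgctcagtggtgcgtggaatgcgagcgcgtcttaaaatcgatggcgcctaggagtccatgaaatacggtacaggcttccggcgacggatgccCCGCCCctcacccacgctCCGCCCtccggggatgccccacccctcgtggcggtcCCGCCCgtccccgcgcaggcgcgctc
A GC box was searched as GGGCGG, the strand given being that of these letters. The other 2 motifs were searched as CCAAT and as the letters TATAAA, and no matches overlapped. HPRT1 held 4 GC boxes, all on its own strand, and APRT 3, all on the opposite strand. TK1 held 2 GC boxes, one on each strand, and 1 TATA box on the opposite strand. PIGA held 2 CCAAT boxes on the opposite strand and no GC box. The windows were 62.4% (TK1), 68.8% (HPRT1), 65.6% (PIGA) and 66.0% (APRT) G and C, against a median of 58.0% over 35116 promoters of this length. Among those, 42.6% held a GC box, 32.01% a CCAAT box and 10.7% a TATA box. An E2F motif (TTTCCCGC, TTTCGCGC, TTTGCCGC or TTTGGCGC, either strand) was found in none of the 4 windows and in 2.79% of all promoters. A match describes letters, not a bound factor.

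Levels of different genes were compared per length, as TPM (transcripts per 1000000, from the counts and the exon length in the table). APRT was the highest at 222.1 ± 34.4 TPM over the 12 libraries (SD), above 96.3% of the tested genes. DTYMK, the thymidylate kinase that acts on the product of the thymidine kinases, stood at 147.2 ± 13.4 TPM, below APRT in 12 of 12 libraries although the ranges overlapped. HPRT1 stood at 136.1 ± 12.9 TPM, below DTYMK in 10 of 12 libraries, and the ranges of this pair overlapped too. DCK, the deoxycytidine kinase of nucleoside salvage, stood at 72.8 ± 6.76 TPM and TK1 at 32.8 ± 3.48 TPM, and neither range overlapped with that of a neighbour in the order. TK1 was 4.02-fold above PIGA, which stood at 8.17 ± 1.96 TPM. TK2, the mitochondrial thymidine kinase, was the lowest at 2.94 ± 0.733 TPM, above 25.3% of the tested genes.

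The place of ADK, adenosine kinase, depended on the length used. The table gives it 14039 exon bases, and with these it stood at 7.64 ± 0.864 TPM, below PIGA in 7 of 12 libraries. With the 1169 bases of its GENCODE principal transcript, a length chosen after the values were seen, it stood at 91.7 ± 10.4 TPM, above DCK in 12 of 12 libraries. PIGA moved less, to 13.5 ± 3.25 TPM (6053 against 3652 bases), and with the principal transcript lengths TK1 was 2.52-fold above it. The order of the other 7 genes was the same with either length.

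**Figure D1:**
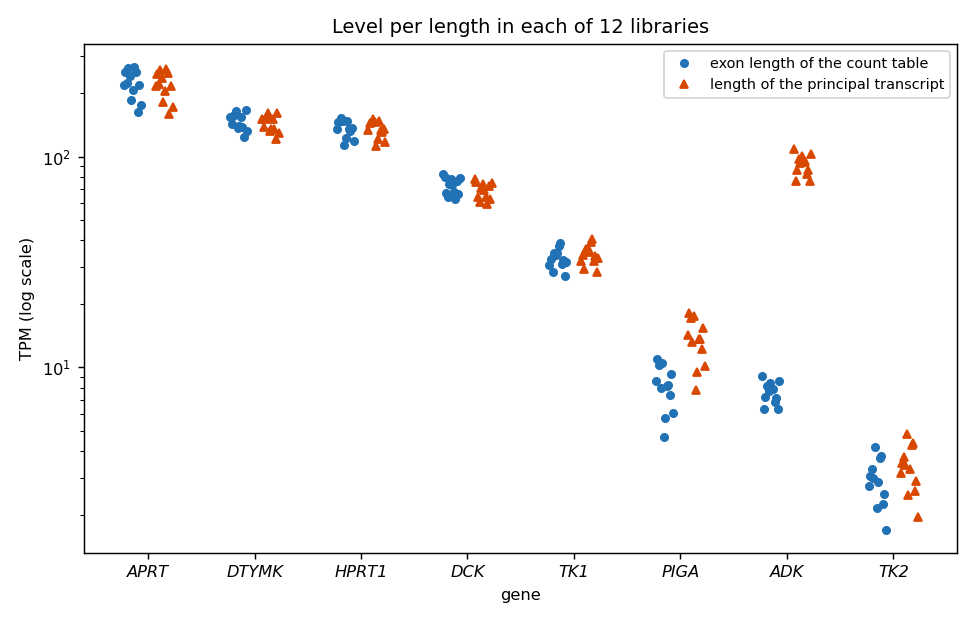
TPM of the 8 genes in each of the 12 libraries, on a log axis, with the exon length of the count table and with the principal transcript length. ADK moves from 7.64 to 91.7 TPM on average between the lengths, and APRT is highest and TK2 lowest with both.

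Each concentration was then compared with control, which asks whether the loci that such assays score changed in expression. No member was called in any comparison (edgeR's quasi-likelihood test, Benjamini-Hochberg adjustment over 12030 genes, adjusted p below 0.05), and neither was any other gene, so that 0.0% of the tested genes were called in low, in medium and in high, and likewise in an F test over the 4 groups and in a trend over the rank of concentration. At an unadjusted p below 0.05 there was 1 member in low, 1 in medium and 0 in high, beside 2.82%, 1.99% and 3.12% of all tested genes. The F test put 1 member below that level, beside 1.74% of genes, and the trend 0 members, beside 2.9%. In these fits, without a covariate, the member was TK1 each time. Without the filter its unadjusted edgeR p was 0.115 in low, 0.0525 in medium and 0.207 in the F test. With DESeq2 on all rows the unadjusted p of TK1 was 0.0468 in low and 0.0179 in medium. Over the 4 groups DESeq2's likelihood-ratio test gave 0.0727. DESeq2 and limma voom called no member either. In simulated counts of high against control, genes drawn at random from all tested genes were changed. The test called 47.3% of the 93 changed by 1 on the log2 scale and 5.10% of the 98 changed by 0.5, in a single run. Each gene was simulated on its own, so differences between libraries that many genes share were not part of it.

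On the scale of CPM after TMM scaling (scaled CPM from here on) TK1 measured 22.2, 24.4 and 22.9 in control, 27.8, 26.6 and 28.96 in low, 30.1, 30.4 and 25.6 in medium and 25.3, 23.5 and 26.8 in high. All 6 low and medium libraries lay above all 3 controls, and the high libraries overlapped with control. Such a separation was shared by 3.53% of tested genes in low, 5.17% in medium and 1.16% in both together. Its log2 fold changes at low, medium and high were 0.26 ± 0.11, 0.31 ± 0.10 and 0.12 ± 0.10 (SE; edgeR adjusted p = 0.911, 0.998 and 0.810), so TK1 did not pass. Of the 12030 genes, TK1 had the p of rank 159 in low and 48 in medium, and both comparisons use the same controls. Leaving out each library in turn gave log2 values from 0.23 to 0.30 in low and from 0.26 to 0.39 in medium.

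No other member separated from control. None of the 8 lay wholly below control in low, medium or high, beside 3.52%, 5.55% and 3.85% of tested genes. None lay wholly above it in high, beside 3.66%.

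HPRT1 had the narrowest range of the 8 genes, 1.29-fold between its lowest and highest library. Its scaled CPM was 80.3, 89.1 and 98.7 in control, 99.98, 95.1 and 77.5 in low, 80.4, 95.2 and 92.5 in medium and 85.05, 97.04 and 82.4 in high. The groups overlapped, with means of 89.4 ± 9.20, 90.8 ± 11.8, 89.4 ± 7.84 and 88.2 ± 7.80 (SD, n = 3). For low against control the fold was 1.02 (0.843 to 1.23), with its 95% interval in parentheses. For high against control it was 0.987 (0.819 to 1.19), and for medium the log2 value was 1.8e-05, with an interval from -0.27 to 0.27.

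PIGA averaged below control at each concentration and passed the test at none. It measured 22.2, 29.2 and 29.9 scaled CPM in control and 22.7, 29.5 and 13.98 in low. In medium it measured 16.4, 22.9 and 24.5 and in high 20.6, 28.6 and 18.5. Each treated group overlapped with control, and the lowest of the 12 values belonged to low replicate 3. The log2 fold changes were -0.30 ± 0.26, -0.35 ± 0.26 and -0.26 ± 0.26 in low, medium and high (SE; edgeR adjusted p = 0.911, 0.998 and 0.810). Single libraries moved these values: in low from -0.56 without low replicate 2 to -0.056 without low replicate 3. In medium they ran from -0.48 (without control replicate 1) to -0.19 (without medium replicate 1), and in high from -0.48 (without high replicate 2) to -0.13 (without high replicate 3). A fit with the 16S share as covariate, an alternative chosen with the values known, gave -0.14, -0.14 and -0.0034.

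APRT measured 87.2, 103.04 and 99.99 scaled CPM in control, 114.8, 103.1 and 84.9 in low, 91.05, 113.9 and 115.6 in medium and 69.7, 103.8 and 81.5 in high. The groups overlapped, and the lowest value was that of high replicate 1. The log2 fold changes were 0.061 ± 0.16, 0.14 ± 0.16 and -0.19 ± 0.16 (SE; edgeR adjusted p = 0.942, 0.998 and 0.810). The value in high was -0.36 without high replicate 2 and -0.061 without high replicate 1 (edgeR adjusted p = 0.267 and 0.970). In medium it ran from 0.071 (without control replicate 1) to 0.25 (without medium replicate 1). With the 16S covariate the values in low, medium and high were 0.16, 0.24 and -0.065.

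Among the kinases TK2 had the widest range, 2.27-fold. It measured 6.89, 7.89 and 9.25 scaled CPM in control, 8.23, 11.4 and 6.21 in low, 7.99, 10.1 and 10.99 in medium and 6.13, 7.51 and 5.0004 in high. The highest value was in low and the lowest in high, and every treated group overlapped with control. The folds over control, with 95% intervals, were 1.07 (0.734 to 1.57) for low, 1.21 (0.829 to 1.77) for medium and 0.777 (0.532 to 1.14) for high (edgeR adjusted p = 0.938, 0.998 and 0.810). Leaving out a library moved the log2 value in medium from 0.18 (without control replicate 1) to 0.40 (without control replicate 3). In high it ran from -0.53 (without high replicate 2) to -0.23 (without high replicate 3), and in low it changed sign, from -0.15 to 0.29 (without low replicate 2 or 3). With the 16S share as covariate the log2 value was 0.45 in place of 0.28 in medium and -0.14 in place of -0.36 in high, neither called. In that fit the unadjusted edgeR p in medium was 0.0125 for TK1, 0.0191 for TK2 and 0.0367 for APRT. Of the 12030 genes 530 were below 0.05 there. In its F test the unadjusted p was 0.0374 for TK1, 0.0140 for TK2 and 0.0336 for APRT, beside 609 genes below 0.05.

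DCK ranged from 77.8 to 101.3 scaled CPM, DTYMK from 68.9 to 101.4 and ADK from 39.2 to 60.3. All their treated groups overlapped with control. In high the fold, with its 95% interval, was 1.05 (0.900 to 1.24) for DCK, 1.03 (0.841 to 1.25) for DTYMK and 1.07 (0.864 to 1.32) for ADK. In low and medium their log2 values lay between -0.087 (DCK, medium) and 0.19 (ADK, low).

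**Figure D2:**
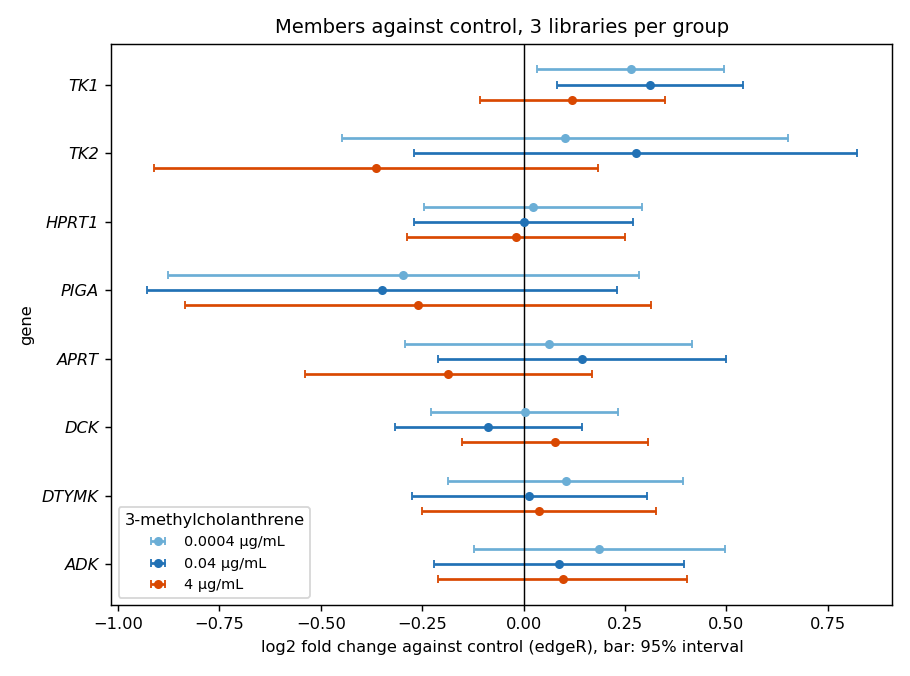
Log2 fold change against control of each gene, with its 95% interval before adjustment from the edgeR fit, at the 3 concentrations. The intervals of TK1 in low and medium lie above 0, and all others include 0.

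Ratios within a library do not depend on its scaling, although other differences between libraries can remain in them. Per length, with the exon lengths of the count table, HPRT1 stood 15.7-, 13.2- and 14.3-fold above PIGA in the controls and 21.3-, 18.05- and 16.4-fold in medium. Another length would change all folds of a pair by the same factor and leave the differences between groups as they are. The medium ratios lay above those of all controls, with a log2 difference of 0.36 (2-sided exact permutation p = 0.1, adjusted 0.375 over 15 tests). With 3 libraries per arm p cannot go below 0.1. TK1 stood 8.60- to 11.2-fold above TK2 in control and 10.9- to 18.6-fold in high, a log2 difference of 0.50 (exact permutation p = 0.2, adjusted 0.375). The other 13 tests, which also covered DCK to TK2, TK1 to DTYMK and HPRT1 to APRT, gave an exact permutation p of 0.2 or more.

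Libraries of one group differed for some members more than for others. The coefficient of variation within groups was 24.1% for PIGA, against a median of 13.8% over 909 genes of like level, of which 86.1% varied less. TK1 was at the other end, at 6.70% against 13.3%, and 4.75% of 948 genes varied less. TK2, the sparsest, had 21.4% against 20.4%. The other 5 genes lay between 8.31% (DCK) and 14.4% (APRT).

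The level of PIGA went against the 16S share of the library (both on the log2 scale, Pearson r = -0.92, permutation p = 8.0e-05, Spearman rho = -0.95, permutation p = 4.0e-05, n = 12 libraries). This relation was picked with the values known and computed for all 8 members, and the adjusted permutation p for PIGA was 0.000640 for r and 0.000320 for rho. Without the 2 libraries farthest from the median share, low and high replicate 3, r was -0.90, and over deviations from the group means it was -0.93. HPRT1 gave r = -0.79 and rho = -0.76 (adjusted permutation p = 0.0122 and 0.0249), r = -0.69 without those libraries and -0.84 within groups. TK2, DTYMK and APRT gave r of -0.71, -0.64 and -0.63 (adjusted permutation p = 0.0267, 0.0420 and 0.0420), with rho of -0.66, -0.59 and -0.61 (0.0505, 0.0512 and 0.0512). Their r was -0.50, -0.74 and -0.51 without those libraries and -0.94, -0.76 and -0.75 within groups.

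ADK and DCK went the other way, at r = 0.62 and 0.57 (adjusted permutation p = 0.0420 and 0.0618), with rho of 0.64 and 0.63 (0.0505 for each). Within groups r was 0.61 and 0.66, but without low and high replicate 3 it was 0.31 and 0.13, so the relation of this pair was weaker without those libraries. Leaving them out also narrows the range of shares, and the drop in r was not tested. TK1 gave r = 0.43 and rho = 0.43 (permutation p = 0.161 and 0.163), with r = 0.34 without those libraries and 0.50 within groups. Such relations were common: over all tested genes the 5th and 95th percentiles of r were -0.93 and 0.93. The r of every member lay between these percentiles. Of the tested genes 6.09% had r at or below that of PIGA and 21.5% at or below that of TK2. The permutation p compares a member with shuffled libraries, not with other genes, so it does not set these members apart. The part of the 16S share in the PIGA differences between groups was not tested beyond the covariate fit given above.

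The genes most like each scored locus were named by Pearson correlation of log2 scaled CPM over the 12 libraries, which share groups and the 16S differences. For PIGA they were ACADM, MARS2 and TPP1 (r = 0.98, 0.98 and 0.97). For HPRT1 they were MAP1LC3B, HMGB1 and RPS23 (r = 0.95, 0.94 and 0.93), and for APRT POLR2I, TMEM199 and RPL18 (r = 0.95, 0.94 and 0.94). For TK1 they were EXOG, MRPL27 and EIF2B5 (r = 0.85, 0.85 and 0.85), lower than for the other 3 loci. Over deviations from the group means r was 0.53, 0.59 and 0.69 for these genes. For the genes named with the other 3 loci it ran from 0.93 to 0.99. Among all pairs of members the strongest were HPRT1 with PIGA (r = 0.79), HPRT1 with DCK (-0.79) and TK2 with APRT (0.79). DCK came close with APRT (-0.78) and with TK2 (-0.77). Over deviations from the group means the first 3 pairs had r = 0.89, -0.89 and 0.66. TK2 with PIGA had 0.96 by that measure and 0.58 over the 12 libraries.

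Of 26 listed genes of GPI anchor synthesis and attachment, the pathway of PIGA, 23 were tested and 0 called. By the sign of the fitted value alone, in low 16 were positive and 7 negative, in medium 14 and 9, and in high 13 and 10. Over all 12030 tested genes 6177, 5984 and 6092 were positive in low, medium and high. The median log2 values of the list were 0.081, 0.032 and 0.0055, beside 0.0075, -0.0017 and 0.0036 over all tested genes. GPAA1 and PIGS, subunits of the transamidase that attaches the anchor, had the highest levels, at 135.3 ± 12.6 and 111.1 ± 6.72 TPM (SD). PGAP3 and PIGT had the smallest p in high, with log2 values of -0.50 ± 0.23 and -0.30 ± 0.15 (SE; edgeR adjusted p = 0.810 for each). PIGY and PIGW are listed at 0 counts in all libraries. For PIGY 100% of the exon bases lie inside other genes and for PIGW 7.29%, and PIGW has a second entry. For neither gene is this read as absence.

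Of 16 GPI-anchored surface proteins 7 were tested and 0 called, with median log2 values of -0.049, 0.044 and 0.058 in low, medium and high. CD55, a complement regulator used as a readout of PIGA loss, stood at 4.73 ± 0.555 TPM (SD), and its log2 value in high was 0.16 ± 0.14 (SE; edgeR adjusted p = 0.810). CD59, another such readout, is listed at 0 counts in all 12 libraries, with 43.8% of its exon bases inside other genes, and this too is not read as absence. BST2 and CD48 had the highest levels, at 281.96 ± 71.3 and 157.4 ± 15.1 TPM (SD). LY6E had the smallest p in high (log2 1.71 ± 0.72, SE; edgeR adjusted p = 0.810), from 586 counts in high replicate 1 against 83 and 59 in the other high libraries and 43 to 76 in control. LY6E has a second entry in the table, so its level is uncertain.

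Of 36 genes of deoxynucleotide and pyrimidine metabolism, among them TK1, TK2, DCK and DTYMK, 32 were tested and 0 called. The fitted value was negative for 21 in low, 22 in medium and 23 in high, beside 5853, 6046 and 5938 of the 12030 tested genes. The median log2 values of the list were -0.057, -0.077 and -0.063. The fitted value was positive for the other 11, 10 and 9 tested genes, among them TK1 and DTYMK at each concentration. RRM2, a subunit of ribonucleotide reductase, and SHMT2, which supplies one-carbon units in mitochondria, had the highest levels, at 256.4 ± 23.7 and 223.7 ± 29.7 TPM (SD). DHODH, an enzyme of pyrimidine synthesis, and UCK2, a uridine and cytidine kinase, had the smallest p in high, with log2 values of -0.32 ± 0.14 and -0.24 ± 0.14 (SE; edgeR adjusted p = 0.810 for each).

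Of 34 genes of purine synthesis and salvage, among them HPRT1, APRT and ADK, 27 were tested and 0 called, with median log2 values of -0.011, -0.0027 and -0.084. IMPDH2, a dehydrogenase of guanine nucleotide synthesis, had the highest level at 534.4 ± 48.7 TPM (SD), and APRT came next. IMPDH1, its paralog, had the smallest p in high, with a log2 value of -0.17 ± 0.08 (SE; edgeR adjusted p = 0.810). GMPR2, next by p, had 80, 39 and 4 counts in control and 0, 25 and 8 in high and has a second entry, so its level is uncertain. PNP, a purine nucleoside phosphorylase chosen after its values were seen, had 30, 344 and 294 counts in control, 26, 19 and 22 in low, 24, 23 and 37 in medium and 38, 26 and 557 in high. Control replicate 1 and high replicates 1 and 2 were thus near the low and medium libraries. Its log2 values were -3.09 ± 1.23 in low and -2.92 ± 1.21 in medium (SE; edgeR adjusted p = 0.911 and 0.998), the only ones of this list with an unadjusted p below 0.05. PNP also has a second entry, so its level is uncertain.

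Of 12 genes of nucleoside transport and drug handling 9 were tested and 0 called, with median log2 values of 0.021, -0.02 and 0.0068. SLC43A3, a purine base transporter, and SLC29A1, an equilibrative nucleoside transporter, had the highest levels, at 533.4 ± 49.01 and 247.4 ± 17.5 TPM (SD). ABCC5 and SLC29A2, an exporter and a nucleoside transporter, had the smallest p in high, with log2 values of -0.26 ± 0.18 and 0.28 ± 0.22 (SE; edgeR adjusted p = 0.810 for each).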

How the data were processed

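RNA of TK6 cells was extracted (RNeasy Mini), poly(A)-selected and read in pairs on a DNBSEQ-G400RS, as the labels state. Tools named by the submitters are MultiQC 1.27, HISAT2 2.2.1, fastp 0.23.4 and featureCounts 2.0.6, with build GRCh38.p14; their options are not stated. The authors deposited raw counts per gene with exon lengths. They also deposited CPM, which equalled count over library total within 5.0e-05 CPM. Of counts from 1 to 10, 68.7% were even, and the cause was not tested.

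Counts were filtered with filterByExpr, scaled with TMM (factors 0.970 to 1.04) and fitted over all 12 libraries with edgeR 4.0.16 in R 4.3.3. Standard errors and 95% intervals were derived from the F statistics. The script was tested on simulated data. Of the exon bases of ADK 1.84% lie in exons of another gene, of the other 7 members none, and no member has a second entry. Promoters are RefSeq's (GRCh38.p14), matched by symbol for 8 of 8 members. DESeq2 1.42.0, limma 3.58.1, other scalings and filters, a replicate block and leaving out each library were alternatives; the 16S covariate and the principal transcript length were added after seeing the values.

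The members and gene lists were chosen with earlier results of these data known. Named are all members, from each list other than the cell type markers the 2 genes with the smallest p in high and the 2 with the highest mean TPM, and the 3 genes most correlated with each scored locus. CD59, PIGY, PIGW, PNP and the markers named were chosen outside this rule, after their values were seen.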

Additional observations from a re-analysis of the deposited data

How the results depend on the processing

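No member was called under any alternative in any comparison. Of 384 recomputed log2 fold changes of members 339 kept their direction and 45 turned, with adjusted p from 0.267 up. Over all genes, in place of 0 called by edgeR, DESeq2 on all rows, a change of tool and of filter at once, called 4 in low, 9 in medium, 5 in high, 1 in the trend and 21 in the F test. EdgeR without the filter called 3, 7, 4, 1 and 35, and with the filter and the 16S covariate 1, 1, 2, 1 and 5. Limma-trend on log2 CPM plus 1 called 1, 2, 1 and, in the F test, 2. Voom called 1 in medium, 1 in high and 1 in the F test, library totals alone 1 in the F test, and fits of only the 2 groups 1 in low and 6 in medium. Leaving out a library gave 0 to 2 genes in low, in medium and in high and 0 to 4 in the F test. The replicate block called 2 genes in the F test and changed no call of a member. Same-numbered libraries deviated with correlations from -0.38 to 0.58 (median 0.064), others from -0.60 to 0.41 (median -0.041). These overlapping ranges cannot decide whether the replicate numbers pair the libraries. With the block 434 genes in low, 306 in medium and 609 in high had an unadjusted edgeR p below 0.05. Without it there were 339, 239 and 375. In the trend there were 569 against 349, and in the F test 193 against 209.

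Turned values in low were, for HPRT1, -0.0114 with library totals alone, -0.0190 with limma-trend with 1 added and -0.0193 with limma-trend with 0.1 added, and for DCK -0.0396 with library totals alone, -0.0102 with no filter, -0.00261 with voom, -0.0421 with limma-trend with 1 added, -0.0426 with limma-trend with 0.1 added and -0.0441 with the 16S covariate. In medium they were, for HPRT1, -0.0330 with library totals alone, -0.000113 with no filter, -0.0338 with limma-trend with 1 added, -0.0342 with limma-trend with 0.1 added and -0.00271 with the replicate block, and for DTYMK -0.0190 with library totals alone, -0.0176 with limma-trend with 1 added and -0.0178 with limma-trend with 0.1 added. In high they were, for HPRT1, 0.0829 with the 16S covariate, and for DTYMK -0.0203 with library totals alone, -0.0338 with limma-trend with 1 added and -0.0343 with limma-trend with 0.1 added. Leaving out a library gave in low -0.152 to 0.288 for TK2, -0.0533 to 0.126 for HPRT1, -0.0437 to 0.172 for APRT and -0.0847 to 0.0847 for DCK, in medium -0.0744 to 0.0841 for HPRT1, -0.0406 to 0.0952 for DTYMK and -0.0315 to 0.192 for ADK and in high -0.0988 to 0.0621 for HPRT1, -0.134 to 0.158 for DTYMK and -0.0414 to 0.201 for ADK. For the log2 ratios within a library it gave -0.0490 to 0.447 for TK1 to TK2 in low, -0.137 to 0.208 for TK1 to TK2 in medium, -0.371 to 0.146 for DCK to TK2 in low, -0.0336 to 0.297 for TK1 to DTYMK in high and -0.0805 to 0.0146 for HPRT1 to APRT in low. The place in the order of levels was, by CPM, 6 for TK1, 2 for HPRT1, 7 for PIGA, 3 for DCK, 4 for DTYMK and 5 for ADK, and with the principal transcript length 6 for TK1, 7 for PIGA, 5 for DCK and 4 for ADK. With 3 libraries per group, changes of 0.5 on the log2 scale in genes drawn at random were mostly not called in simulated counts. That figure is an average over genes and does not hold for each member. In high the SE of the members ran from 0.10 (TK1) to 0.26 (PIGA).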
